A study of Mus musculus with 13 samples.

Results

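The comparison set small RNA captured through biotin from differentiated HOXB8 cells against the same fraction from undifferentiated HOXB8 cells, a progenitor line. HOXB8 cells are mouse myeloid progenitors held in that state by an estradiol-dependent form of the transcription factor Hoxb8, and they mature toward neutrophils when estradiol is taken away. The undifferentiated cells (progenitor below) grew in RPMI medium with 10% serum, 1 µM β-estradiol and 100 ng/ml stem cell factor. The differentiated cells had been washed 3 times in PBS and kept in that medium without β-estradiol, for a time not given in the sources used here. Cells of both kinds were given 100 µM Ac4ManNAz, an azide-bearing sugar precursor that cells turn into sialic acid, for 36 h, with 10 µM Gal and 100 µM GalNAc. RNA carrying the azide was joined to DBCO-PEG4-biotin and pulled down on streptavidin beads. The members were all rows of the small RNA table with a read in either library, 13769 of 18385 distinct sequences, of which 12076 were read in the progenitor library, 10821 in the differentiated library and 9128 in both.

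Each side was 1 library, so no p-value is given, and every interval below is an exact 95% interval of counting error only. The progenitor library held 6377059 reads and the differentiated library 8047029, and the table accounted for 91.9% and 93.5% of them. No library from cells without the azide sugar was analysed here, so the background of the capture is not known. HOXB8 libraries of input RNA under 300 nt and of RNA bound to the lectin wheat germ agglutinin (WGA) are set beside the pair. So is captured RNA of differentiated cells digested with the N-glycan-cleaving enzyme PNGase F. The table held 39.3% of the progenitor input reads and 70.2% of the differentiated input reads. Summed input RPM was therefore higher after differentiation, and gains in input RPM include this. Values are RPM, reads scaled to the whole library, and so are shares: a smaller share of one RNA, more of another and a change in RNA per cell cannot be told apart.

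GlycoRNA is the name given to small RNAs that carry sialylated N-glycans and are displayed at the cell surface, where they were found through this kind of azide labelling. The RNAs reported to carry such glycans include Y RNAs, small nuclear RNAs, small nucleolar RNAs (snoRNAs), tRNAs and ribosomal RNAs. In these libraries most reads were short pieces of longer RNAs, above all of the 45S precursor from which 18S, 5.8S and 28S rRNA are cut, so a read's 3′ and 5′ ends say which piece was held.

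The leading captured reads of the 45S record formed families with 1 shared 3′ end. The leading family ended at position 9903, in the 28S region. Its 4 main captured members, and the 17-base member that led in the input libraries, are shown with their shared last 16 bases in capitals. They differ in where they begin, and the 23-base one also does not match the record exactly at its 5′ end.
28S end, 25 bases: gatatagacAGCAGGACGGTGGCCA
28S end, 24 bases: atatagacAGCAGGACGGTGGCCA
28S end, 23 bases: gatagacAGCAGGACGGTGGCCA
28S end, 22 bases: atagacAGCAGGACGGTGGCCA
28S end, 17 bases: cAGCAGGACGGTGGCCA
The second family ended at position 672, in the 5′ external spacer, a part of the precursor that is cut off while ribosomes are made. Capitals again mark the last 16 bases.
Spacer end, 21 bases: tcttaGATCGATGTGGTGCTC
Spacer end, 22 bases: ctcttaGATCGATGTGGTGCTC
The third ended at position 8705, in a stretch of 28S rich in G and C. It was chosen as the next 3′ end by RPM in the progenitor library alone, a choice that favours a fall. In the differentiated library the end at 9757 was higher, 13704 against 1645 RPM.
Second 28S end, 19 bases: cttCCTCCCCGCGTCCGGC
Second 28S end, 21 bases: ctcttCCTCCCCGCGTCCGGC
Outside the precursor, the leading snoRNA, tRNA and genome-listed reads were the following. Capitals mark the letters TGATGA of the C box in the snoRNA reads and the CCA that is added to tRNA 3′ ends. The 16-base genome read is wholly in capitals. In the 18-base genome read they mark the last 17 bases, which form a shorter read.
snoRNA, 29 bases: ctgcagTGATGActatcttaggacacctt
snoRNA, second record, 29 bases: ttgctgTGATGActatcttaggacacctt
tRNA 5′ start, 18 bases: gcattggtggttcagtgg
tRNA 3′ end, 18 bases: atccgggtgccccctCCA
Genome, 16 bases: AGCGGAGTAGAGCAGT
Genome, 18 bases: tTAAGTAAGAGTATTTGG

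The largest shift was between 2 groups of reads: pieces of rRNA took a larger share after differentiation and reads listed only by genome position a smaller one. Of the summed RPM of the table, rRNA made up 44.4% in the progenitor library and 61.9% in the differentiated library. Reads of the genome class made up 47.1% and 27.4%. No other class of the table's 16 reached 5% of either library. The ncRNA class went from 4.05% to 4.25%, the miRNA class from 1.80% to 1.66% and the tRNA class from 1.04% to 1.46%. The snoRNA class, guides of rRNA modification, went from 0.441% (interval 0.436 to 0.447) to 1.505% (1.497 to 1.514), a log2 ratio of 1.77 and the highest among the classes above 0.2%. Next came sRNA (0.0873% to 0.221%), snRNA (0.139% to 0.296%) and pre_miRNA (0.506% to 0.956%). These names are the table's own labels, and some cover sequences of another kind, as given further on.

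Class by class, the biotin pair and the other pairs did not always point the same way. The log2 ratio of the rRNA share was 0.48 after biotin capture, 0.13 after WGA capture and 0.35 in input. For snoRNA the values were 1.77, 0.86 and 0.97, above 0 in all 3 pairs. For the genome class they were -0.78, -0.06 and -1.10. The tRNA share was higher after biotin capture (0.49) and lower in the WGA pair (-0.74) and in input (-2.61). The sRNA and pre_miRNA classes were higher after biotin capture (1.34 and 0.92) and lower in input (-1.92 and -1.62), with WGA values of 0.27 and 0.19. None of these differences between pairs was tested, since each pair is 1 library a side. The class values also rest on a few reads: without the 10 highest sequences of each biotin library the log2 ratio was -0.19 for rRNA, -0.15 for tRNA and 1.99 for snoRNA.

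**Figure D1:**
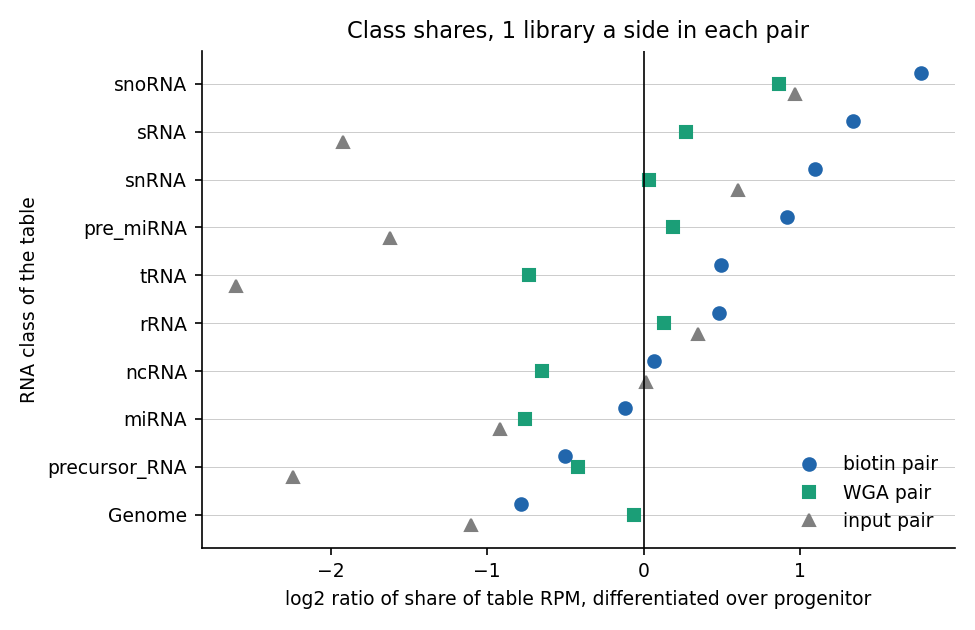
Log2 ratio of the share of table RPM, differentiated over progenitor, for the classes that reach 0.2% of either biotin library, in the biotin, WGA and input pairs (1 library a side, so no error bars). snoRNA is right of 0 in all 3 pairs, while sRNA, pre_miRNA and tRNA lie right of 0 for biotin and left of 0 for input.

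At the level of single sequences, more were lower than higher. A sequence was counted when it reached 100 RPM in either biotin library (574 did) and was called when its log2(RPM + 1) differed by more than 2-fold. Of these, 146 were higher in the differentiated library, which is 25.4% of those tested, and 226 were lower, which is 39.4%. The median log2 ratio was -0.56. Scaled to that median the counts were 185 higher and 156 lower. Every log2 ratio of a sequence, record or family in the biotin pair would then gain 0.56, while the ratios of class shares and of the other pairs would not move. The falls smaller than 0.56, among them the spacer family, 18S and the summed rest of the 45S record, would change sign, and the larger ones would not. The rRNA class was higher in total although 179 of its 373 tested sequences were lower and 71 higher: its gain lay in a few very abundant reads. In the snoRNA class 23 of 27 were higher and 0 lower, with a median of 2.44. In pre_miRNA 9 of 11 were higher and 0 lower, and in tRNA 5 of 9 were higher and 3 lower. In the genome class 7 of 40 were higher and 19 lower, in ncRNA 14 and 12 of 61, and in miRNA 12 and 11 of 35.

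**Figure D2:**
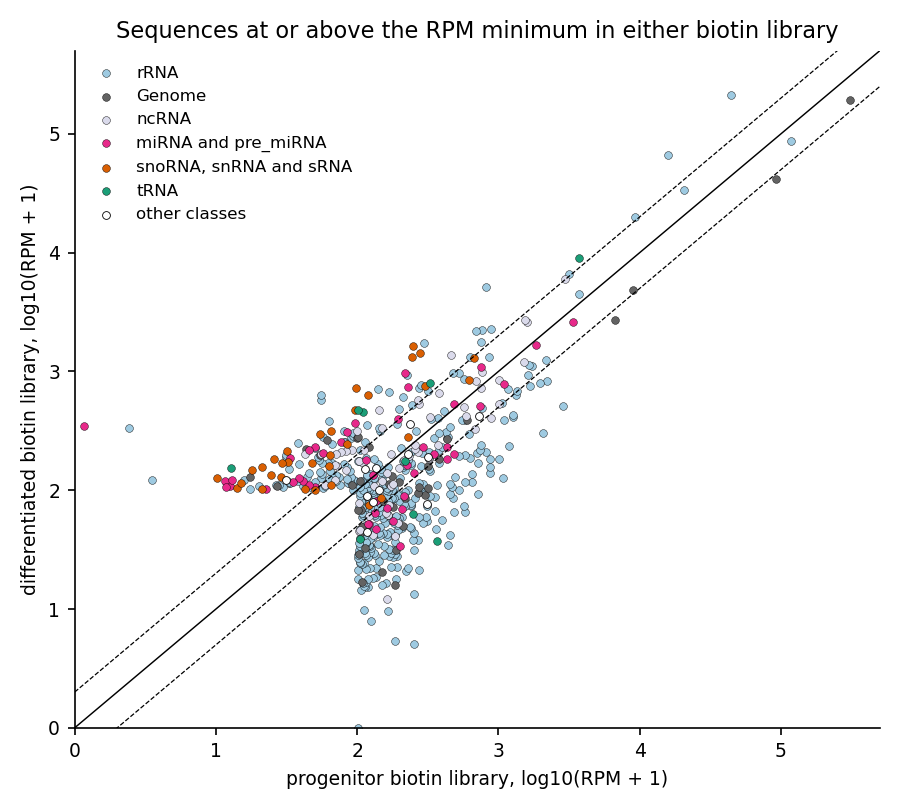
The 574 tested sequences by log10(RPM + 1) in the progenitor library (x axis) and the differentiated library (y axis), coloured by class. The solid line is equality and the dashed lines 2-fold. Many rRNA points lie below the lower dashed line, while the rRNA point at 44262 and 214556 RPM lies far above the upper one.

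Only 5 sequences passed 5% of either library, and together they held 62.8% of the progenitor table and 64.4% of the differentiated table. Their sum was nearly equal, 577283 against 602044 RPM, and the change lay in how it was divided. The 16-base genome read went from 306910 to 192251 RPM, the 21-base spacer read from 117707 to 86566 RPM and the 18-base genome read from 92447 to 41961 RPM. Against these, the 25-base 28S read went from 44262 to 214556 RPM and the 24-base one from 15958 to 66711 RPM. The 25-base read thus passed from the fourth place among captured sequences to the first. The remaining 18380 sequences summed to 341684 and 333245 RPM.

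The 28S family ending at 9903 was the largest single gain. Its 455 sequences summed to 75381 RPM in the progenitor library and 315292 RPM in the differentiated library, 4.18-fold more, or 8.20% and 33.7% of the table. The 25-base member was 4.85-fold higher (4.83 to 4.87) and the 24-base member 4.18-fold higher (4.15 to 4.21). The shorter members gained less: the 23-base read went from 9244 to 19932 RPM, 2.16-fold, and the 22-base read from 3184 to 6627 RPM, 2.08-fold. The 23-base read does not match the record exactly at its 5′ end. Of the 21 tested members 16 were called higher and 0 lower.

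The same family gained in the WGA pair, from 61042 to 292709 RPM, and in input, from 43453 to 99770 RPM. Its make-up in input was another one. The input libraries were led by the 17-base member, at 12715 RPM in progenitor and 28783 RPM in differentiated cells, which after biotin capture stood at only 65.4 and 128 RPM. The 25-base member in turn stood at 894 and 1198 RPM in input. So in RPM the member that dominated the captured fraction had a log2 ratio of 0.42 between the inputs and 2.28 between the biotin libraries. The input ratio includes the unlike parts of the 2 input libraries that the table holds. In the captured RNA digested with PNGase F it stood at 212253 RPM, beside 214556 RPM without the enzyme.

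The spacer family ending at 672 kept its sum but shifted its 5′ start. The 135 sequences held 145126 RPM in the progenitor library and 129795 RPM in the differentiated library, 0.894-fold. Within it the 21-base read was lower, 117707 against 86566 RPM, and the read that begins 1 base earlier was higher, 20532 against 33450 RPM. The 22-base read was 17.4% of the 21-base read in progenitor and 38.6% in differentiated cells. In input the same share was 13.7% and 33.6%, in the WGA libraries 16.1% and 37.6%, and after PNGase F 38.8%. The shift of the start was thus of like size in captured and in uncaptured RNA.

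**Figure D3:**
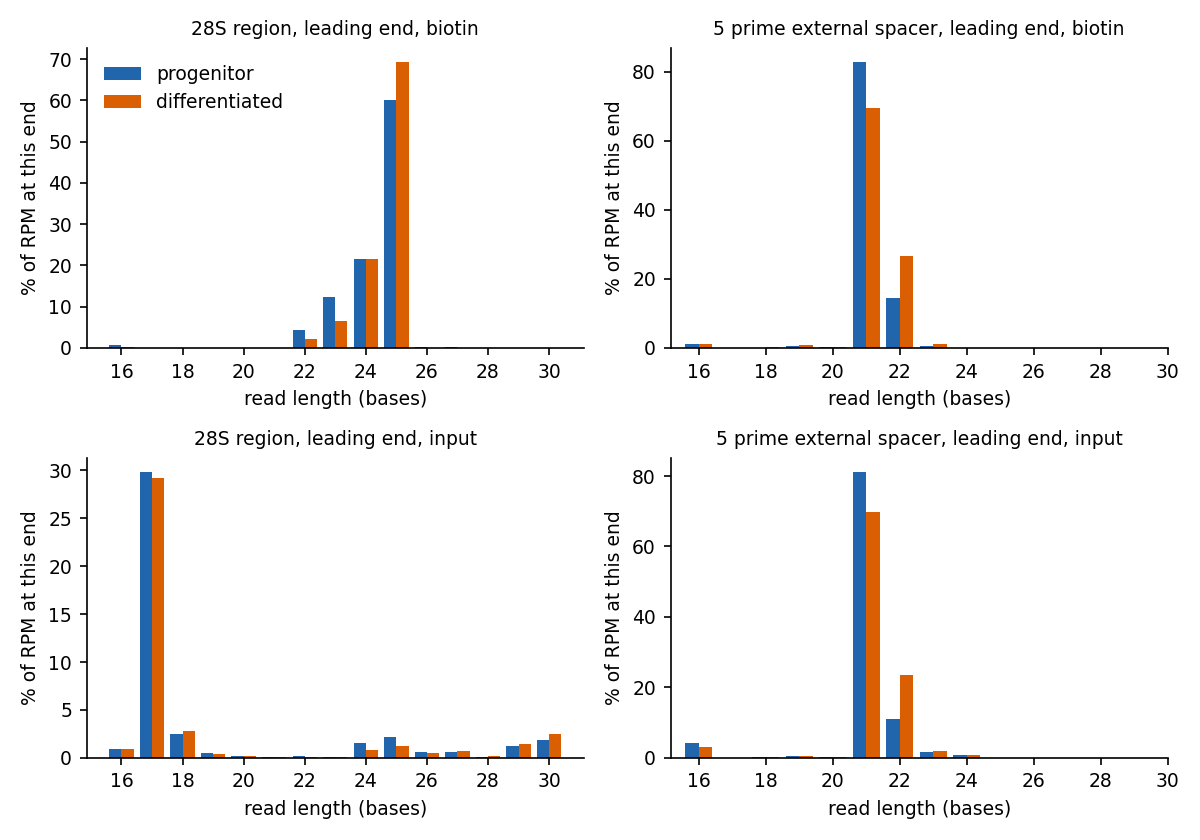
Share of the RPM at the leading 28S end (left) and the leading spacer end (right) by read length, in the biotin libraries (top) and the input libraries (bottom), progenitor in blue and differentiated in orange. Reads of 25 bases lead the captured 28S family and reads of 17 bases lead it in input, while 22-base spacer reads are the larger share after differentiation in both rows.

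The rest of the 45S record went down after biotin capture. With exact matches listed under other names included, 9603 sequences lay on the record and summed to 439483 and 597443 RPM. Without the families ending at 9903 and 672 the sum was 218976 and 152356 RPM, 0.696-fold, and 196 of 384 tested sequences were lower against 48 higher. Over the parts of the record, reads of the 28S region outside the leading end went from 188756 to 121658 RPM and reads of 18S from 23074 to 19403 RPM. Reads of 5.8S, the short rRNA that pairs with 28S, went up from 5622 to 9643 RPM, 1.72-fold. Reads of the first internal spacer, a low-abundance part, went from 345 to 28.7 RPM. In the input pair 28S outside the leading end and 18S went the other way in RPM, from 77470 to 118124 RPM and from 66536 to 154641 RPM. The table held 39.3% of the progenitor input reads and 70.2% of the differentiated input reads. Part of these input gains lies in that difference, and the parts were not compared as shares of the input tables. 5.8S was higher in both pairs (12604 and 101779 RPM in input), and the first internal spacer was lower in both (6.67 and 2.36 RPM in input). Most of the biotin fall of that spacer lay between 6401 and 6500 (320 to 22.1 RPM), where input had 0.267 and 0 RPM. In the WGA pair 5.8S was lower, 7365 and 6066 RPM, as was the first internal spacer, 291 and 35.7 RPM. 28S outside the leading end and 18S were lower there too.

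With reads put in windows of 100 bases by their midpoint on the record, 47 windows reached 1000 RPM in either biotin library, and 36 of them had a log2 ratio below 0. Past 2-fold, 9 windows were lower and 2 higher. The lowest was the window from 8601 to 8700, which went from 17157 to 3791 RPM, a log2 ratio of -2.18, beside -3.08 in the WGA pair and -0.80 in input. Next came the window from 10901 to 11000, with 12830 and 3864 RPM. The highest was the window with the leading 28S end, with a log2 ratio of 2.06.

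**Figure D4:**
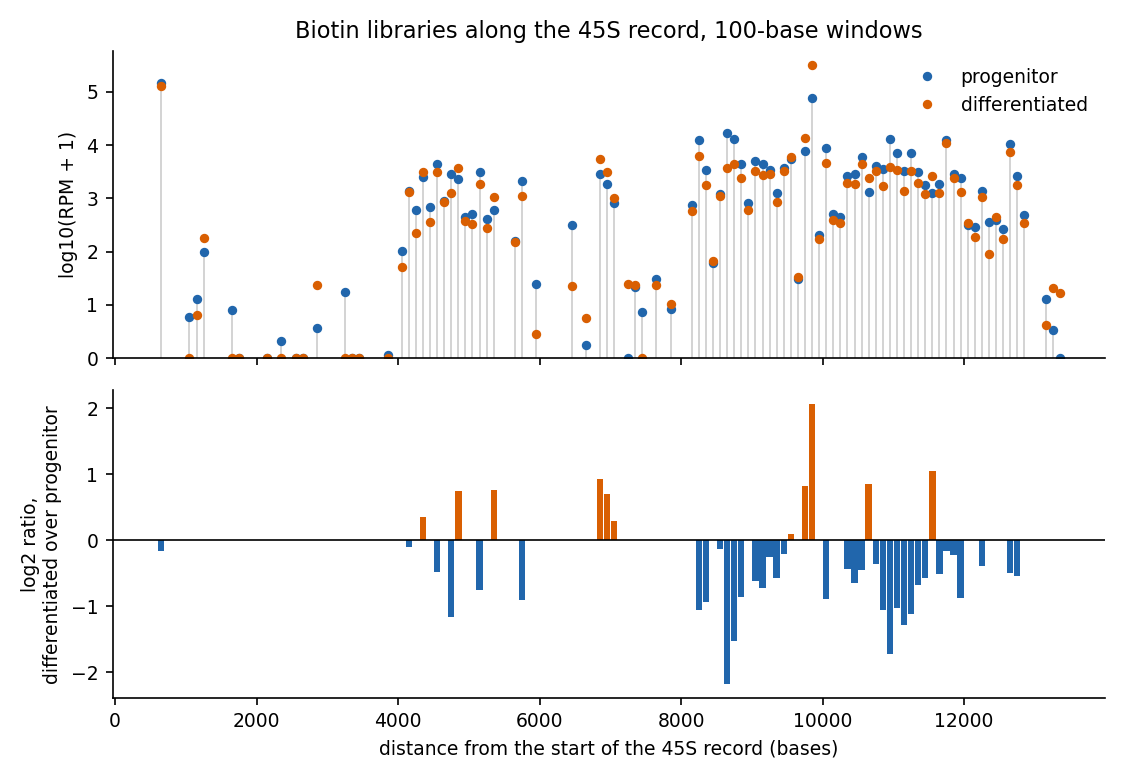
Biotin-captured reads along the 45S record in windows of 100 bases, by distance from the start of the record: top, log10(RPM + 1) of the progenitor (blue) and differentiated (orange) library; bottom, the log2 ratio for the 47 windows at 1000 RPM or more. Bars fall below 0 in 36 windows and the tallest bar, at 2.06, is the window of the leading 28S end.

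The reads that fell in share also formed families by 3′ end, some of them at neighbouring bases. The family ending at 8705 summed to 8987 RPM in the progenitor library and 1645 RPM in the differentiated library, 5.46-fold lower, and 9 of its 9 tested members were lower. Its 19-base member went from 2879 to 511 RPM and its 21-base member from 2061 to 304 RPM, 6.77-fold lower (6.48 to 7.07). The family ending at 10982 went from 1684 to 251 RPM, 6.72-fold lower. Among 45 ends at 1000 RPM or more, 22 were lower past 2-fold and 6 higher. Each base was counted as its own end, so neighbours such as 8286, 8287 and 8288 count separately among the lower. The 6 higher were the ends at 9903, 10703 (535 to 1832 RPM), 11595 (782 to 2428 RPM), 4400 (698 to 1652 RPM), 4873 (1534 to 3498 RPM) and 6889 (1973 to 4453 RPM). The end at 4873, in 18S, was far larger in input, 49503 and 126682 RPM.

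The lower sequences were shorter and richer in G and C than the higher ones. The median share of G and C was 77.8% among the 226 lower, 52.9% among the 146 higher and 68.7% among the 202 within 2-fold, and the median lengths were 18, 23 and 20 bases. Below 50% G and C, 51 of 80 sequences were higher and 7 lower, with a median log2 ratio of 1.58. From 70% to below 80%, 16 of 143 were higher and 90 lower, with the lowest median of the bins, -1.56. From 80% upward, 6 of 164 were higher and 97 lower, with a median of -1.20. Within the 28S region and without its leading end, 162 of 256 sequences at 70% or more were lower, and 23 of 74 below 70%. In the WGA pair the medians were 1.16 below 50%, -2.36 from 70% to below 80% and -2.40 from 80% upward. In the input pair they were 0.77, -0.011 and -0.22. The labels give no library date or amplification cycles, so the part of library preparation in this pattern was not tested.

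**Figure D5:**
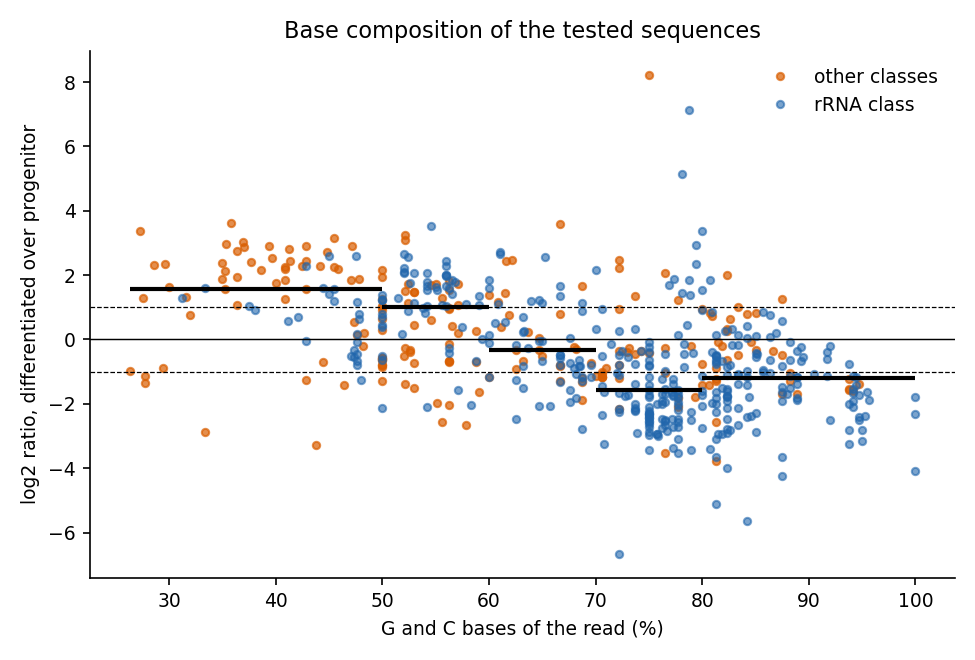
Log2 ratio of each tested sequence (differentiated over progenitor biotin library) against the share of G and C in the read, rRNA class in blue and other classes in orange. Black bars are the medians of 5 bins of base composition and dashed lines are 2-fold; the median is 1.58 below 50%, -1.56 from 70% to below 80% and -1.20 from 80% upward.

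The same sequences largely kept their side in the WGA pair, which shares no library with the biotin pair. Of the 146 sequences higher after biotin capture, 138 had a WGA log2 ratio above 0 and 107 were past 2-fold. Of the 226 lower, 225 were below 0 and 213 past 2-fold. Over all 574, 189 were above 0 and 383 below 0 in the WGA pair, with a median of -1.24, and past 2-fold 21.6% were higher and 53.5% lower. In the input pair 116 of the 146 were above 0 and 161 of the 226 were below 0, and over all 574 the counts were 298 above and 263 below. The captures shared their cell states, and the input median of the 226 lower sequences was -0.39, smaller than the WGA median of -3.03.

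5S rRNA, which is transcribed apart from the 45S precursor, was higher in the captured fraction after differentiation. The rRNA reads outside the 45S record went from 14102 to 27905 RPM. Their leading 3′ end, 145 on the records (whose RNA begins at 51), summed to 4589 and 15609 RPM, 3.40-fold higher, and 9 of its 9 tested members were higher. Of these, a 95-base read that runs from position 51 to 145 went from 814 to 5135 RPM, 6.31-fold (6.13 to 6.49). It stood at 166 and 476 RPM in the WGA pair and at 147 and 91.1 RPM in input, where it was lower after differentiation. The 24-base read with the same end went from 771 to 2238 RPM and the 18-base read from 698 to 2203 RPM. In input the whole family went from 6204 to 18593 RPM. In RPM the gain of the short members was thus of like size there and that of the 95-base read was not.

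Reads of snoRNAs were higher in most records. snoRNAs of the C/D kind guide the methylation of rRNA and carry a C box near their 5′ end, written TGATGA in DNA letters. On the sense strand of the reads, 252 of the 551 snoRNA rows hold TGATGA within their first 20 bases (45.7%), against 1.72% of all rows of the table. These rows summed to 2885 RPM in the progenitor library and 11393 RPM in the differentiated library, 3.95-fold. The snoRNA rows without it went from 1170 to 2687 RPM, 2.30-fold. In the WGA pair rows with TGATGA also gained more, from 3354 to 7569 RPM against 1634 to 2119 RPM. In input the order was reversed. Rows with TGATGA went from 1022 to 1424 RPM there, 1.39-fold. Rows without it, most of the input snoRNA RPM, went from 21373 to 76757 RPM, 3.59-fold. In the biotin pair the 29-base read that begins ctgcag went from 246 to 1629 RPM, 6.63-fold (6.29 to 6.99). The 29-base read of the second record went from 245 to 1330 RPM, 5.43-fold (5.15 to 5.73). Both begin at the first base of their RNA.

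Longer snoRNA reads gained more than short ones. Reads of 40 or more bases went from 1164 to 6402 RPM, 5.50-fold, reads of 20 to 39 bases from 1349 to 5158 RPM, 3.82-fold, and reads under 20 bases from 1542 to 2521 RPM, 1.63-fold. The 17-base read of one record was 618 and 854 RPM, within 2-fold. Among 105 snoRNA records at 10 RPM or more in either biotin library, 85 were higher and 3 lower, with a median log2 ratio of 1.87. Of all 637 records at that minimum, 49.3% were higher and 17% lower, with a median of 0.95. In the 105 snoRNA records the median was 0.89 in the WGA pair and 0.84 in input. An sRNA-class read of 27 bases that also holds the TGATGA letters went from 279 to 1424 RPM, 5.11-fold. The leading snRNA read, of 18 bases, went from 676 to 1308 RPM, 1.93-fold, beside 1239 and 896 RPM in the WGA pair.

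Of the other small RNA families some were barely present, among them Y RNA, which is in the list of reported glycoRNAs above. Y RNA, a small noncoding RNA bound by Ro60, had 1 row, at 0 RPM in the progenitor library and 10.4 RPM in the differentiated library. A count of 0 there allows up to 0.470 RPM. RNase MRP RNA, which cuts the rRNA precursor, had 1 row at 5.65 and 2.36 RPM. RNase P RNA, which trims tRNA 5′ ends, was at 0 in both biotin libraries. The RNA of the signal recognition particle, which docks ribosomes at the endoplasmic reticulum, went from 735 to 929 RPM, 1.26-fold, and none of its 3 tested sequences was called.

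Of the tRNA pieces, those with the mature 3′ end were higher, and those with the 5′ start were higher in sum through 1 read. Reads that begin at the first base of the tRNA went from 5749 to 11051 RPM, 1.92-fold. The 18-base read in this group, which has the 5′ sequence known for glycine tRNAs, went from 3726 to 9102 RPM, 2.44-fold (2.41 to 2.48). Without it the group was level, at 2023 and 1949 RPM, and of the 5 tested members 2 were higher and 2 lower. In input it went the other way, from 10090 to 2792 RPM, and in the WGA pair it went from 3356 to 4954 RPM. A near copy of the same length went from 329 to 792 RPM. The 2 lower members were longer: a 28-base read that extends the glycine read was 103 and 37.8 RPM, and a 29-base read with the 5′ sequence of glutamate tRNA was 247 and 62.4 RPM. Reads that end in the CCA of the mature 3′ end went from 264 to 1372 RPM, 5.19-fold, with 3 of 3 tested members higher, and the 18-base one shown above went from 99.7 to 474 RPM. In input that read was at 0.534 and 0.788 RPM. All reads of the CCA group went from 157 to 968 RPM in input, 6.16-fold, and were 1.51-fold higher in the WGA pair. All other tRNA reads went from 3527 to 1260 RPM, and their 1 tested member, a 16-base internal read, was 366 and 36.4 RPM, 10.0-fold lower. The tRNA record with the greatest loss held 796 reads in the progenitor library and 5 in the differentiated library.

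miRNAs were found by sequence, since the table gives no miRNA names and its title calls it a table of sequences other than miRNA isoforms. Reads that lie exactly within a RefSeq hairpin and overlap a mature miRNA by at least 12 bases numbered 221 and belonged to 86 mature miRNAs, with 2 sequences that match a pair of them. Another miRNA table was not analysed here, so these levels may be part of each miRNA. The 4 with the most RPM in the differentiated library, and miR-223-3p as the granulocyte marker, are given as RefSeq mature sequences (GRCm38.p6) with the seed, bases 2 to 8, in capitals. They are shown because miR-25-3p and miR-92a-3p share 1 seed.
miR-25-3p: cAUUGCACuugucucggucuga
miR-92a-3p: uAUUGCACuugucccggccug
miR-181a-5p: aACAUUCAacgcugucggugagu
miR-27b-3p: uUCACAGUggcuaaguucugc
miR-223-3p: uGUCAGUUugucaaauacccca
miR-25-3p lies at chr5:138165332-138165353 on the minus strand, miR-27b-3p at chr13:63300760-63300780 and miR-223-3p at chrX:96242884-96242905, both on the plus strand. miR-92a-3p and miR-181a-5p each have 2 loci.

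miRNA reads were higher in the differentiated library as a group. Their sum was 2703 RPM in the progenitor library and 8899 RPM in the differentiated library, 3.29-fold, beside 5.76-fold in input and 1.84-fold in the WGA pair. The input fold includes the unlike parts of the 2 input libraries that the table holds, so its size is not comparable with the biotin fold. Of 65 miRNA names at 10 RPM or more in either biotin library, 56 were higher and 1 lower, with a median log2 ratio of 2.13. At that minimum 27.5% of all 6015 sequences and 49.3% of all 637 records were higher. miR-181a-5p went from 329 to 1164 RPM, 3.54-fold (3.38 to 3.71). miR-25-3p went from 255 to 1124 RPM and miR-92a-3p from 285 to 964 RPM. miR-27b-3p was almost level, 499 and 538 RPM. miR-16-5p went from 69.2 to 362 RPM in the biotin pair and from 44.3 to 491 RPM in input. Reads equal to a RefSeq mature sequence made up 56.6% and 51.9% of the matched RPM.

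miR-223, the miRNA best known for marking granulocytes, checked the labels. Its reads went from 14 in the progenitor library (2.20 RPM) to 2113 in the differentiated library (263 RPM), and in input from 4.27 to 522 RPM. The 3p arm alone had 1 read in the progenitor library, so its ratio of 1176 has an interval from 211 to 46482. Of 8 granulocyte miRNAs on the marker list, 6 were found in the RefSeq table, and all 6 had reads in both libraries, with sums of 214 and 881 RPM. miR-142 went from 20.1 to 138 RPM, miR-24 from 129 to 341 RPM and miR-146a from 4.70 to 17.9 RPM. No sequence of the table matched the 7 progenitor or HOX-linked miRNAs of the list (miR-10a, miR-99b, miR-125a, miR-125b, miR-126, miR-196a and miR-196b). The 3 erythroid and lymphoid markers (miR-451a, miR-144 and miR-150) had none either. Since the table may hold only part of the miRNAs, these zeros do not show absence.

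Several class names covered 45S pieces. Of the ncRNA class, 1177 of 1474 sequences lay exactly within the 45S sequence as read in the table itself, with 88.5% of the class RPM in the progenitor library and 92.5% in the differentiated library. For the miRNA class it was 178 of 548 sequences, with 67.3% and 52.3% of the RPM. The leading ncRNA reads all end at 9757, an end in 28S: the 18-base one went from 2956 to 5991 RPM and the 20-base one from 1544 to 2732 RPM. The leading miRNA-class read, of 36 bases, begins at 12616 of the 45S record and was 3361 and 2612 RPM. The second, of 16 bases, is the 3′ part of the spacer family above and was 1841 and 1666 RPM. With such reads counted as rRNA, the log2 ratio of the miRNA share was 0.43 where it had been -0.12, and that of ncRNA -0.53 where it had been 0.07.

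The genome class was 2 reads and their near copies. The 16-base read is listed at chr7:81731500-81731515 (mm10), on the reverse strand, within the lncRNA gene Gm42400. It went from 306910 to 192251 RPM, 1.60-fold lower (1.59 to 1.60), while in the WGA pair it went from 193172 to 252595 RPM and in input it was 7200 and 6041 RPM. The 18-base read is listed at chrX:142215582-142215599, where RefSeq has no gene. It went from 92447 to 41961 RPM, 2.20-fold lower (2.19 to 2.21), with 86844 and 41535 RPM in the WGA pair and 1410 and 1441 RPM in input. Its last 17 bases form a read of their own, listed on chromosome 11, which went from 8941 to 4863 RPM. Reads related to the 16-base read were spread over 18 chromosomes and those related to the 18-base read over 16, and the origin of reads this short was not tested. Both families were far higher after capture than in input. Without them the genome class summed to 20046 and 14472 RPM.

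By length, captured reads were longer after differentiation, as were reads of the WGA and input pairs. Reads of 16 bases made up 39.3% of the progenitor table and 24.0% of the differentiated table, and reads of 25 bases 5.68% and 24.0%, which is mostly the 28S read. Reads of 18 bases went from 14.4% to 8.69% and reads of 21 bases from 15.1% to 11.2%. Reads of 24 bases went from 2.62% to 8.17%, those of 22 bases from 4.22% to 6.07% and those of 23 bases from 2.10% to 3.27%. Reads of 20 or more bases made up 39.02% and 62.6%. Without the 5 leading sequences the shares were 52.9% and 65.3%, so a smaller gain was left. With all sequences, reads of 20 or more bases made up 42.7% and 57.9% of the WGA tables. In the input tables they made up 55.4% and 69.6%. Reads of 40 or more bases, among them the 95-base 5S read and the long snoRNA reads, went from 9306 to 23641 RPM, 2.54-fold. Their summed RPM was 2.84-fold higher in input and 1.14-fold higher in the WGA pair. Of their 32 tested sequences 25 were higher and 0 lower.

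By annotated record, the count ran opposite to that of single sequences. Of the records at 100 RPM or more in either library, 65 were higher, which is 36.9%, and 16 lower, which is 9.09%. Scaled to their median log2 ratio of 0.26 the counts were 56 and 25. The whole 45S record is only 1 of these, at 377384 and 535757 RPM. snoRNA gave 19 of 23 records higher, pre_miRNA 13 of 20, miRNA 10 of 19 and rRNA 9 of 43, with 2 miRNA records and none of the others lower. tRNA gave 4 higher and 6 lower of 15, and ncRNA 3 and 7 of 37. Above 1000 RPM, the records with the highest ratios were 2 snoRNA records (268 to 1813 RPM and 247 to 1637 RPM) and a 5S record (883 to 5391 RPM).

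Some reads were high in the differentiated biotin library alone. Of 355 sequences at 100 RPM or more there, 3 had at most 10% of that level in every other HOXB8 library, and 0 did so for the progenitor library. The 3 were picked after their values were seen, and 0 of them match the 45S sequence exactly. A 36-base read, a 1-base variant of the leading miRNA-class read, stood at 346 RPM beside 0.157 RPM in the progenitor library and 0.310 RPM after PNGase F. A 33-base 28S read stood at 334 RPM and a 35-base read with the same start at 572 RPM, beside 1.41 and 54.7 RPM in progenitor and 0 and 0.155 RPM after PNGase F. A variant of the 21-base spacer read, T3G by position from the read's 5′ end, was not particular to 1 library. It stood at 298 and 1748 RPM in the biotin pair, 52.3 and 1188 RPM in the WGA pair, 17.6 and 207 RPM in input, and 52.3 RPM after PNGase F. Its share of the parent read was 2.02%, 1.19% and 1.14% in the biotin, WGA and input libraries of differentiated cells, and 0.0540% after PNGase F, although all 4 are of differentiated cells. In progenitor cells the shares were 0.253%, 0.0457% and 0.0659%. Of 21 tested 1-base variants of a read at least 10 times as high, 15 were higher and 0 lower. Of these 21, 12 belong to the leading 28S family, itself higher, with 11 of the 15, and 8 to the spacer family, with 3.

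Digestion with PNGase F left the captured profile of differentiated cells much as it was. Of the 574 sequences, 426 (74.2%) lay within 1.5-fold of the undigested library and 78 were past 2-fold. The share of rRNA was 62.2%, that of the genome class 27.4% and that of snoRNA 1.43%. The labels place the digestion after purification, and how the RNA was recovered for the library was not given in the sources used here. This library and the undigested one are both set against the 1 progenitor library, so they give no separate check of it.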

How the data were processed

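Small RNA libraries were made with the Illumina TruSeq small RNA kit, per the labels' protocols. The deposited values are RPM of each distinct read sequence, scaled by the authors to the library's reads, with a class, record, position and length per the file headers. mm10 is the build in the submitters' processing notes. The aligner, trimming and any filter are not given in the sources used here. RPM values were whole multiples of 1 read (largest gap 0.000476), from which reads were recovered. Of its 9 columns, the 7 of HOXB8 cells were used.

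Class shares are of the summed RPM of the table. Single sequences and records were compared as log2(RPM + 1) at 100 RPM or more in either library and called past 2-fold, with no test. Intervals are exact (Clopper-Pearson 95% for shares, conditional binomial for ratios) and cover counting error only. A count of 0 allows up to 3 reads. The ratio code was checked on simulated counts. 45S bases were read by a weighted vote at each position over all 7013 sequences listed on the 45S record, and cover 6502 positions. Of these sequences 5459 equal the result, and exact matches are to it. Boundaries of the 18S, 5.8S, 28S and spacer parts were taken from general knowledge of the mouse precursor. miRNA and gene positions are from RefSeq (GRCm38.p6, the mm10 assembly). Where the design called for names in the records, sequence was used in their place.

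Named items were every class at 1% or more, the 10 highest sequences of each library, the 10 largest and 10 smallest ratios at 1000 RPM or more, the same for records, the 3 highest of each such class, every RNA family and every length at 3% or more. The members, lists and this rule were chosen with earlier results of these data known. Python 3.11.15, numpy 2.4.6, pandas 2.3.3, scipy 1.17.1 and matplotlib 3.10.9 were used.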

Additional observations from a re-analysis of the deposited data

Results flagged for a closer look

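A few results had opposite directions in the biotin pair and in another pair of HOXB8 libraries (differentiated over progenitor in each). Each pair is 1 library a side, so none of these differences was tested. The ncRNA share had a log2 ratio of 0.069 after biotin capture and -0.65 after WGA capture. The tRNA share had 0.49 after biotin capture, -0.74 after WGA capture and -2.61 in input. The spacer family ending at 672 had -0.16 after biotin capture and 0.067 after WGA capture. 5.8S reads had 0.78 after biotin capture and -0.28 after WGA capture. Of single reads, the 17-base 28S read from 8713 to 8729 had -2.33 after biotin capture and 0.13 in input, where it had under 2 RPM. The 20-base 28S read from 8872 to 8891 had -1.60 after biotin capture and 1.75 in input, with 0 and 2.36 RPM in input. The 95-base 5S read had 2.65 after biotin capture and -0.68 in input.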

How the results depend on the processing

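No paired analysis was possible because each side is 1 library and no test was run. The class shares depended on the denominator and on the few leading reads. Their log2 ratios are given in the order rRNA, genome, ncRNA, miRNA, tRNA and snoRNA. As a share of all reads they were 0.51, -0.76, 0.095, -0.091, 0.52 and 1.80. Without the 10 highest sequences of each library they were -0.19, -0.14, 0.17, 0.10, -0.15 and 1.99, so rRNA, miRNA and tRNA changed sign. Without every sequence above 5% they were -0.086, -0.58, 0.13, -0.055, 0.56 and 1.83. With 20 or more bases only they were 0.024, -0.61, -0.51, -0.60, -1.68 and 1.49. As shares of distinct sequences they were -0.011, 0.061, -0.070, 0.058, -0.28 and 0.28. At 10 RPM or more they were 0.50, -0.79, 0.098, -0.12, 0.59 and 1.79. Minus the input ratio they were 0.13, 0.32, 0.054, 0.80, 3.10 and 0.80, so genome and miRNA changed sign. Only snoRNA kept its sign under every one of these settings. Chosen after seeing the data, the PNGase F library in place of the undigested one gave 0.49, -0.78, 0.021, -0.14, 0.40 and 1.69. Counting reads within the 45S record as rRNA, also chosen after seeing the data, gave 0.44, -0.78, -0.53, 0.43, 0.50 and 1.77.

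Sequences past 2-fold, higher and lower, numbered 1654 and 2274 at a minimum of 10 RPM, 17 and 14 at 1000 RPM and 3382 and 4857 with no minimum. Past 4-fold they numbered 59 and 102, and minus the input ratio 82 and 206. Centred on the median, which moves every log2 ratio of a sequence by 0.56, they were 185 and 156. The excess of lower sequences was thus absent under this centring, which puts the median at 0. It stayed when scaled to the table (144 and 229) or to the table without its 5 leading sequences (149 and 223). A pseudocount of 10 RPM, scaling to the table or to the table without its 5 leading sequences, the PNGase F library and leaving out 1-base variants (the last 2 chosen after seeing the data) kept both counts within 1.5 times. Records past 2-fold, higher and lower, numbered 314 and 108 at 10 RPM, 11 and 2 at 1000 RPM, 425 and 200 with no minimum and 29 and 6 past 4-fold. Minus the input ratio they were 28 and 41, and centred on the median 56 and 25. The cause of these shifts was not tested.

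The log2 ratio of the share of reads of 20 or more bases was 0.68. It was 0.71 over all reads, 0.31 without every sequence above 5%, 0.29 without the 10 highest, 0.38 from 18 bases, 1.33 from 25 bases, 0.084 over distinct sequences and 0.69 with the PNGase F library, above 0 in each. At the levels named, counting intervals were narrower than the differences called. With 1 library a side, spread between cultures, labellings and library preparations is not known.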
